A study of Zea mays with 9 samples.

Results

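*MIR319* genes give rise to miR319, a plant miRNA that directs cleavage of mRNAs for TCP transcription factors. The members described here are the 4 *MIR319* precursors of the maize annotation, zma-MIR319a, zma-MIR319b, zma-MIR319c and zma-MIR319d (below *MIR319a* to *MIR319d*), and AC205574.3_FG006, a TCP4-like target of miR319. They are 5 of the 45498 rows of the count table. They were taken by name and by no measured value, but earlier results of these data were known at the time. The table holds 141 miRNA precursors in all, of which 61 had a count in any library. Beside them stand the mature miR319 sequence in 1 small RNA library and the other miR319 targets of the study.

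In plants, a miRNA gene is transcribed as a long, capped and polyadenylated precursor that folds into a hairpin, from which DICER-LIKE1 (DCL1) cuts the mature miRNA. In Arabidopsis, miR319 restrains the CIN-type TCP factors, which limit cell proliferation in leaves, and overproduction of miR319 gives crinkled leaves. The related miR159 acts mainly on GAMYB-type MYB factors, which are known for their part in gibberellin responses and anther development.

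The samples were shoot apices of 14-day-old maize seedlings of the inbred B73. RNA-seq was done on 8 libraries, 2 each of *dcl1-2* central zone (CZ, the stem-cell region of the shoot apical meristem), wild-type CZ, *dcl1-2* P3 (the third-youngest leaf primordium) and wild-type P3. The mutant carries *dcl1-2*, a hypomorphic allele of *DCL1* introgressed into B73 (the labels spell it dc1-2), and wild type were siblings. Each library came from polyadenylated RNA of several pooled apices, cut out by laser microdissection and linearly amplified. The small RNA library came from total RNA of whole wild-type B73 apices.

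The targeted gene and the tissue labels were checked first. *DCL1* (GRMZM2G040762) had 84.0 and 91.7 RPM (counts per 1000000 counts of its library) in *dcl1-2* CZ, against 65.4 and 62.2 RPM in wild-type CZ, and 141 and 136 RPM in *dcl1-2* P3, against 73.2 and 101 RPM in wild-type P3. Its higher level in *dcl1-2* passed the test in P3 (log2 fold change 0.74 ± 0.15 (SE), edgeR adjusted p = 0.0114) and not in the CZ (0.43 ± 0.14, adjusted p = 0.272). The call in P3 was lost without *dcl1-2* P3 replicate 1 (adjusted p = 0.0501) and without replicate 2 (0.0522). The difference between these effects was 0.32 ± 0.21 (adjusted p = 0.490). The transcript level of a hypomorph does not by itself check the genotype. Summed meristem KNOX markers (8 genes, *kn1* and others) were at 1342 to 1440 RPM in *dcl1-2* CZ and 1180 to 1346 RPM in wild-type CZ, and at 41.6 to 47.9 RPM in *dcl1-2* P3 and 32.3 to 36.6 RPM in wild-type P3. Summed leaf YABBY markers (3 genes) were at 492 to 519 RPM in *dcl1-2* P3 and 345 to 495 RPM in wild-type P3, but at only 7.15 to 14.2 RPM in *dcl1-2* CZ and 9.92 to 38.3 RPM in wild-type CZ. Summed vascular markers (3 genes) lay between 39.0 and 46.7 RPM in every library, with *sut1* at 0 in 7 of the 8 libraries. The flat sum hides opposite shifts and is no check of vascular content. *sut2* was at 10.3 to 14.0 RPM in the CZ libraries and 22.9 to 31.2 RPM in the P3 libraries. *sut4* was at 26.9 to 33.3 RPM in the CZ libraries and 14.6 to 20.5 RPM in the P3 libraries. Summed epidermal HD-ZIP IV markers (4 genes) were at 491 to 506 RPM in *dcl1-2* P3 and 371 to 372 RPM in wild-type P3. The part of these markers in the P3 results was not tested. The CZ libraries had totals of 24753974 to 30327603 counts and the P3 libraries totals of 8626824 to 10328582 counts, so that 3 counts, the limit that a count of 0 allows, amounted to 0.0989 to 0.121 RPM for a CZ library and 0.290 to 0.348 RPM for a P3 library.

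The mature sequences and the target sites are shown because all 4 *MIR319* precursors yield 1 and the same miRNA, and because miR159 resembles it. Bases 2 to 8, the seed, are in capitals in the miRNAs, written as deposited with T for U:
miR319a,b,c,d: tTGGACTGaagggtgctccct
miR159a,b,f,j,k: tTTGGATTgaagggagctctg
Without gaps, miR159a,b,f,j,k matched best when shifted by 1 base, with 16 of 20 aligned bases identical. Counted from the 5′ end of miR319, the differences were C6T, T14A, C19T and C20G, with the miR319 base first. The seeds of miR319 and of miR159 are thus different strings. The miR159c,d sequence, the closest of the 5 miR159 sequences, had 17 of 20 aligned bases identical.

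The target sites of 5 of the 9 miR319 target genes were paired with miR319 without gaps, the 3′ end of the site opposite base 1 of the miRNA. Capitals mark the bases that form no Watson-Crick pair, whether a G:U pair or a mismatch:
GRMZM2G115516 and GRMZM2G089361 (TCP): AggGgGacccuucaguccaa
GRMZM2G020805 (TCP): AggGgGGcccuucaguccaa
GRMZM2G015037 (TCP): AggGgACcccuucaguccaG
GRMZM2G028054 (GAMYB): UggagcCcccuucaguccaa
All 5 sites had Watson-Crick pairs at all 7 seed positions. The GAMYB site had the most, 18 of 20, with mismatches opposite bases 14 and 20. The site shared by GRMZM2G115516 and GRMZM2G089361 had 17 of 20, that of GRMZM2G020805 had 16 and that of GRMZM2G015037 had 15. In the 4 TCP genes the bases that did not pair were opposite bases 14 to 20, apart from a G:U pair at base 1 in GRMZM2G015037. For AC205574.3_FG006 no site was read.

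The 4 precursors lie on chromosomes 3 and 8, each with a row of its own, though another gene model overlaps *MIR319b*, as given below. The count table places *MIR319a* at 212116531 to 212117230 of chromosome 3 (+ strand) and *MIR319b* at 2801732 to 2803712 of chromosome 3 (+ strand). It places *MIR319c* at 148276537 to 148277915 of chromosome 8 (- strand) and *MIR319d* at 26766618 to 26768375 of chromosome 8 (- strand). AC205574.3_FG006 is at 3475915 to 3478576 of chromosome 3 (+ strand), 672 kb from *MIR319b*. The processing notes name B73 RefGen_v3, but the study's own list of precursors gives other positions, so the build of these coordinates is not settled. Within them, *MIR319b* lay 53.3 kb from *MIR159c* and *MIR319d* lay 54.2 kb from *MIR159d*, and neither of these *MIR159* precursors had a count in any of the 8 libraries.

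Mature miR319 was abundant in the apex. Its sequence had 56065 reads (544 RPM of mapped reads), the fourth highest of 76 distinct mature sequences and 2.32% of their 2414776 reads (95% Wilson interval, 2.30% to 2.34%). The 5 miR159 sequences had 21183 reads in all, of which 21160 were miR159a,b,f,j,k, so miR319 had 2.65 times as many reads. There is no replicate of this library, no molecular identifiers were used, and intervals cover counting error only. The reads cannot be assigned to 1 of the 4 precursors.

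*MIR319c* (zma-MIR319c) was the main *MIR319* precursor of the CZ, and it rose in *dcl1-2*. It had 636 and 786 counts in *dcl1-2* CZ (25.7 and 31.2 RPM), against 343 and 201 counts in wild-type CZ (11.3 and 7.55 RPM). Both *dcl1-2* libraries were above both wild-type libraries. The means were 28.4 ± 3.86 RPM in *dcl1-2* CZ and 9.43 ± 2.66 RPM in wild-type CZ (SD, n = 2 each), a log2 fold change of 1.56 ± 0.25 (SE; 2.95-fold, edgeR adjusted p = 0.0329). A row was tested where the mean of a genotype reached 1 RPM, and of the 5 members only *MIR319c* was tested in the CZ. Of all 19897 rows tested there, 0.292% passed at an adjusted p under 0.05, and 0.116% passed as higher in *dcl1-2*. The call was lost when the 8 libraries shared 1 model (log2 fold change 1.57, adjusted p = 0.140) and without *dcl1-2* CZ replicate 2 (1.42, adjusted p = 0.0831). Without wild-type CZ replicate 2, in which the summed YABBY markers were highest of the 4 CZ libraries, it was 1.33 (adjusted p = 0.00591).

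The other precursors contributed little in the CZ. *MIR319a* (zma-MIR319a) had 25 and 6 counts in *dcl1-2* CZ and 0 and 4 counts in wild-type CZ. *MIR319b* (zma-MIR319b) had 0 and 2 counts in *dcl1-2* CZ, against 0 and 6 in wild-type CZ. *MIR319d* (zma-MIR319d) had 4 and 0 counts in *dcl1-2* CZ, against 3 and 3 in wild-type CZ. *MIR319a* was higher in both *dcl1-2* libraries than in either wild-type library, whereas for *MIR319b* and *MIR319d* the genotypes overlapped, and none of the 3 reached the minimum for a test. *MIR319c* made up 95.6% (95% Wilson interval, 93.8% to 96.9%) and 99.0% (98.0% to 99.5%) of the *MIR319* counts in *dcl1-2* CZ, against 99.1% (97.5% to 99.7%) and 93.9% (89.9% to 96.4%) in wild-type CZ.

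**Figure D1:**
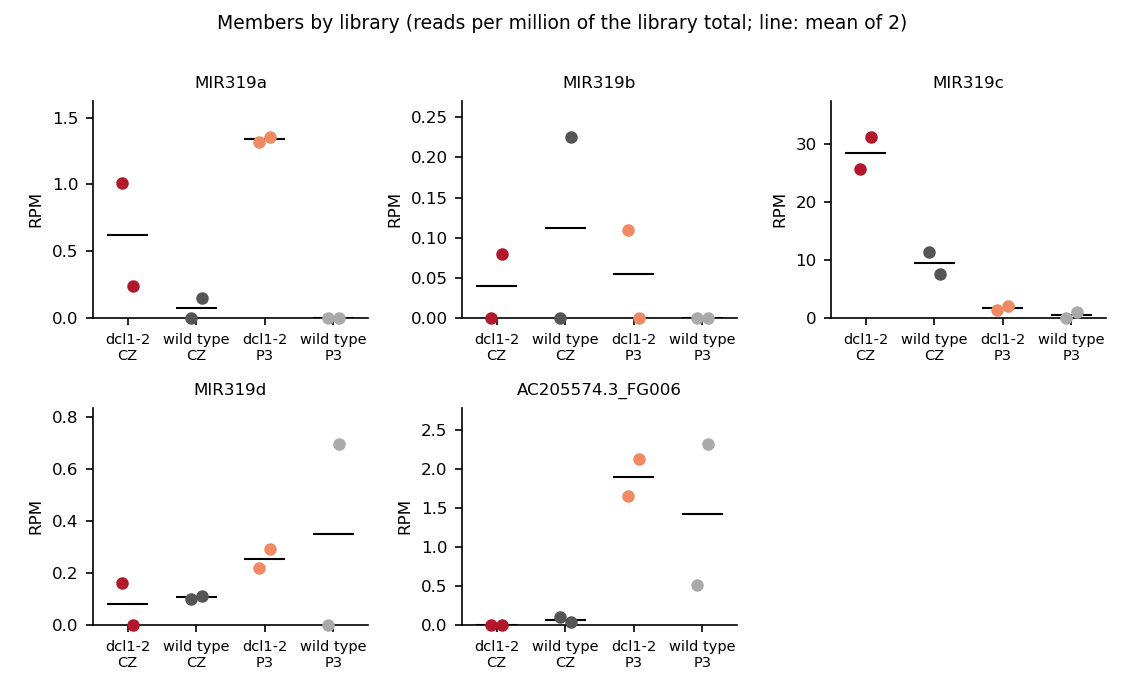
RPM (linear axes starting at 0, a scale for each panel) of the 4 *MIR319* precursors and AC205574.3_FG006 in the 8 libraries; points are libraries and lines the mean of 2. *MIR319c* is highest in *dcl1-2* CZ (25.7 and 31.2 RPM), and *MIR319a* is at 0 in both wild-type P3 libraries and at 1.32 and 1.36 RPM in *dcl1-2* P3.

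In P3 the *MIR319* precursors were few in every library, and *MIR319a* was called higher in *dcl1-2*. *MIR319a* had 12 and 14 counts in *dcl1-2* P3 (1.32 and 1.36 RPM) and 0 in both wild-type P3 libraries. Set against 3 counts over the wild-type group, it was at least 8.17-fold higher in *dcl1-2* P3 (edgeR adjusted p = 0.0354). The call rests on 26 counts and was lost with DESeq2 (adjusted p = 0.0516), when the 8 libraries shared 1 model (adjusted p = 0.136) and when any 1 of the 4 P3 libraries was left out (adjusted p = 0.0501 to 0.105). Of the 22498 rows tested in P3, 4.5% passed, 3.34% as higher and 1.16% as lower in *dcl1-2*.

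*MIR319c* had 13 and 22 counts in *dcl1-2* P3 (1.43 and 2.13 RPM), against 0 and 9 counts in wild-type P3 (0 and 1.04 RPM). Although the genotypes did not overlap, the log2 fold change of 1.87 ± 1.05 (SE) did not pass the test (edgeR adjusted p = 0.380). Wild-type P3 decided its size: without replicate 1 the log2 fold change was 0.87, and without replicate 2 it was 7.14 as fitted, against a wild-type count of 0, which makes 7.14 no bound. *MIR319d* had 2 and 3 counts in *dcl1-2* P3, against 0 and 6 in wild-type P3, and *MIR319b* had 1 and 0 counts in *dcl1-2* P3 and 0 in both wild-type P3 libraries. Wild-type P3 replicate 1 had no count for any of the 4 precursors. *MIR319c* was 46.4% (95% Wilson interval, 29.5% to 64.2%) and 56.4% (41.0% to 70.7%) of the *MIR319* counts in *dcl1-2* P3.

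Summed over the 4 precursors, *MIR319* was at 29.2 ± 3.25 RPM in *dcl1-2* CZ and 9.72 ± 2.38 RPM in wild-type CZ, and at 3.43 ± 0.49 RPM in *dcl1-2* P3 and 0.869 ± 1.23 RPM in wild-type P3 (SD, n = 2 each). Per length of the gene model, *MIR319c* was the highest precursor in the CZ and in wild-type P3, whereas *MIR319a*, a model of 700 bases, was above it in *dcl1-2* P3, at 1.91 RPM per kb against 1.29 RPM per kb of *MIR319c*. These levels rest on 26 and 35 counts, and before division by length *MIR319c* was the higher in *dcl1-2* P3, at 1.78 RPM against 1.34 RPM. In wild-type P3 the order rests on 9 counts of *MIR319c* and 6 of *MIR319d*, all in replicate 2.

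The effect of *dcl1-2* was not shown to differ between the tissues for either precursor that could be tested. For *MIR319c* the log2 fold change in P3 minus that in the CZ was 0.35 ± 0.87 (SE, edgeR adjusted p = 0.899), and for *MIR319a*, with no count in wild-type P3, the adjusted p was 0.521. Over all 23512 rows of this test 2.36% passed. An SE of 0.87 leaves room for a difference of more than 1 on the log2 scale in either direction.

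*MIR319c* was much lower in P3 than in the CZ in both genotypes. Its log2 fold change was -4.09 ± 0.54 for *dcl1-2* P3 against *dcl1-2* CZ (SE, edgeR adjusted p = 2.1e-05) and -4.44 ± 0.64 for wild-type P3 against wild-type CZ (adjusted p = 5.9e-05). The wild-type value rests on 9 counts in P3: it was -3.43 without wild-type P3 replicate 1 and -10.56 as fitted without replicate 2, where no count was left, and it passed in both cases. In these contrasts 65.6% and 62.3% of the 23512 rows passed, and the P3 libraries were sequenced paired-end and the CZ libraries single-end, so tissue and library layout cannot be told apart. In bulk samples, fewer cells of a type and less RNA per cell cannot be told apart either. *MIR319a* did not pass between the tissues (adjusted p = 0.454 in *dcl1-2* and 0.309 in wild type).

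AC205574.3_FG006, the TCP4-like target, had nearly all of its counts in P3. It had 15 and 22 counts in *dcl1-2* P3 (1.65 and 2.13 RPM), against 5 and 20 counts in wild-type P3 (0.517 and 2.32 RPM). In the CZ it had 0 counts in both *dcl1-2* libraries and 3 and 1 counts in wild-type CZ. The genotypes overlapped in P3, and the log2 fold change of 0.51 ± 0.80 (SE) did not pass the test (edgeR adjusted p = 0.801). It rose in P3 relative to the CZ, by at least 31.8-fold in *dcl1-2* against 3 counts over the CZ group (adjusted p = 9.2e-04) and by a log2 fold change of 3.98 ± 1.17 in wild type (adjusted p = 0.0103). The wild-type call was lost without wild-type P3 replicate 2 (2.62, adjusted p = 0.146) and without wild-type CZ replicate 2 (3.52, adjusted p = 0.0501), and its size was 2.62 to 4.72 with 1 library left out. GRMZM5G846096 overlaps it over 1564 bases on the opposite strand and had 20 and 27 counts in *dcl1-2* P3, against 4 and 30 in wild-type P3. Whether reads were counted by strand is not given in the sources used here, so reads of these 2 models cannot be told apart.

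The TCP targets tested in the CZ all had negative log2 fold changes, and none passed the edgeR test. Of the 6 TCP targets 3 were tested, with a median log2 fold change of -1.11, against -0.0029 for all rows tested. GRMZM2G115516, listed as *TCP5* in the reference names, had 34 and 32 counts in *dcl1-2* CZ (1.37 and 1.27 RPM), against 169 and 138 in wild-type CZ (5.57 and 5.18 RPM). Both *dcl1-2* libraries were well below both wild-type libraries, with a log2 fold change of -2.05 ± 0.46 (SE) and an edgeR adjusted p of 0.104. It was the only 1 of the 3 with an unadjusted p under 0.05, and the only one that DESeq2 called (adjusted p = 0.0147). It also passed with no minimum level (adjusted p = 0.00344), with a minimum of 5 RPM (0.0445) and when the 8 libraries shared 1 model (0.0419).

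The other TCP targets had fewer counts in the CZ. GRMZM2G015037 had 17 and 10 counts in *dcl1-2* CZ, against 31 and 34 in wild-type CZ (log2 fold change -1.11 ± 0.75, SE, edgeR adjusted p = 0.667). GRMZM2G020805 had 45 and 48 counts in *dcl1-2* CZ, against 100 and 52 in wild-type CZ (-0.52 ± 0.55, adjusted p = 0.814). GRMZM2G089361, below the minimum for a test, had 7 and 7 counts in *dcl1-2* CZ, against 34 and 17 in wild-type CZ. Summed over the 6 targets the level was 4.02 ± 0.20 RPM in *dcl1-2* CZ and 10.1 ± 1.43 RPM in wild-type CZ (SD, n = 2 each). The YABBY leaf markers, all 3 detected in every library, also had negative log2 fold changes in the CZ. None passed the edgeR test (adjusted p = 0.399 to 0.878). *yab10* was at 1.01 and 1.55 RPM in *dcl1-2* CZ, against 1.95 and 5.45 RPM in wild-type CZ. *yab9* was at 2.59 and 2.46 RPM, against 2.64 and 3.57 RPM. For *yab14* the genotypes overlapped (3.55 and 10.2 RPM, against 5.34 and 29.3 RPM). The part of the YABBY markers in the TCP result was not tested.

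The GAMYB targets tested in the CZ had positive log2 fold changes, and neither passed the edgeR test. GRMZM2G028054, which holds the site with the most pairs to miR319, had 309 and 424 counts in *dcl1-2* CZ, against 216 and 204 in wild-type CZ (12.5 and 16.8 RPM, against 7.12 and 7.66 RPM). GRMZM2G139688 had 317 and 585 counts in *dcl1-2* CZ, against 286 and 202 in wild-type CZ (12.8 and 23.2 RPM, against 9.43 and 7.59 RPM). The genotypes did not overlap in RPM for either gene. Their log2 fold changes were 0.95 ± 0.28 and 1.05 ± 0.31 (SE, edgeR adjusted p = 0.213 and 0.220). Both had an unadjusted p under 0.05, and DESeq2 called neither (adjusted p = 0.109 and 0.0846). GRMZM2G139688 passed with no minimum level (adjusted p = 0.0183). Over the 9 alternative settings that kept all libraries its adjusted p was 0.0183 to 0.452. With 1 library left out its log2 fold change was 0.56 to 1.41. GRMZM2G004090, below the minimum for a test, had 10 and 18 counts in *dcl1-2* CZ, against 0 and 5 in wild-type CZ. GRMZM2G028054 overlaps GRMZM2G496357 over 813 bases on the opposite strand.

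In P3 none of the targets passed the edgeR test. Of the 6 TCP targets 5 were tested, 4 with a positive and 1 with a negative log2 fold change, and their median was 0.51, against -0.016 for all rows tested. GRMZM2G089361 had 64 and 126 counts in *dcl1-2* P3, against 41 and 28 in wild-type P3 (7.05 and 12.2 RPM, against 4.24 and 3.25 RPM). Both *dcl1-2* libraries were above both wild-type libraries (log2 fold change 1.42 ± 0.42, SE, edgeR adjusted p = 0.0708). It was the only TCP target with an unadjusted p under 0.05, and DESeq2 called none of the 5. GRMZM2G089361 passed with no minimum level (adjusted p = 0.0124). Over the 9 alternative settings that kept all libraries its adjusted p was 0.0124 to 0.220. With 1 library left out its log2 fold change was 0.96 to 1.77.

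The remaining targets moved little in P3. GRMZM2G020805, the most abundant, had 141 and 284 counts in *dcl1-2* P3, against 157 and 131 in wild-type P3, with overlapping levels (log2 fold change 0.52 ± 0.28, SE, edgeR adjusted p = 0.356). GRMZM2G115516 had 81 and 68 counts in *dcl1-2* P3, against 51 and 73 in wild-type P3 (0.25 ± 0.39, adjusted p = 0.800). GRMZM2G015037 had 13 and 17 counts in *dcl1-2* P3, against 15 and 20 in wild-type P3 (-0.25 ± 0.72, adjusted p = 0.900). Of the 2 GAMYB targets tested, 0 had an unadjusted p under 0.05 and DESeq2 called 0. GRMZM2G180568, the sixth TCP target, had 1 count in *dcl1-2* CZ replicate 2 and 0 in the other 7 libraries.

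**Figure D2:**
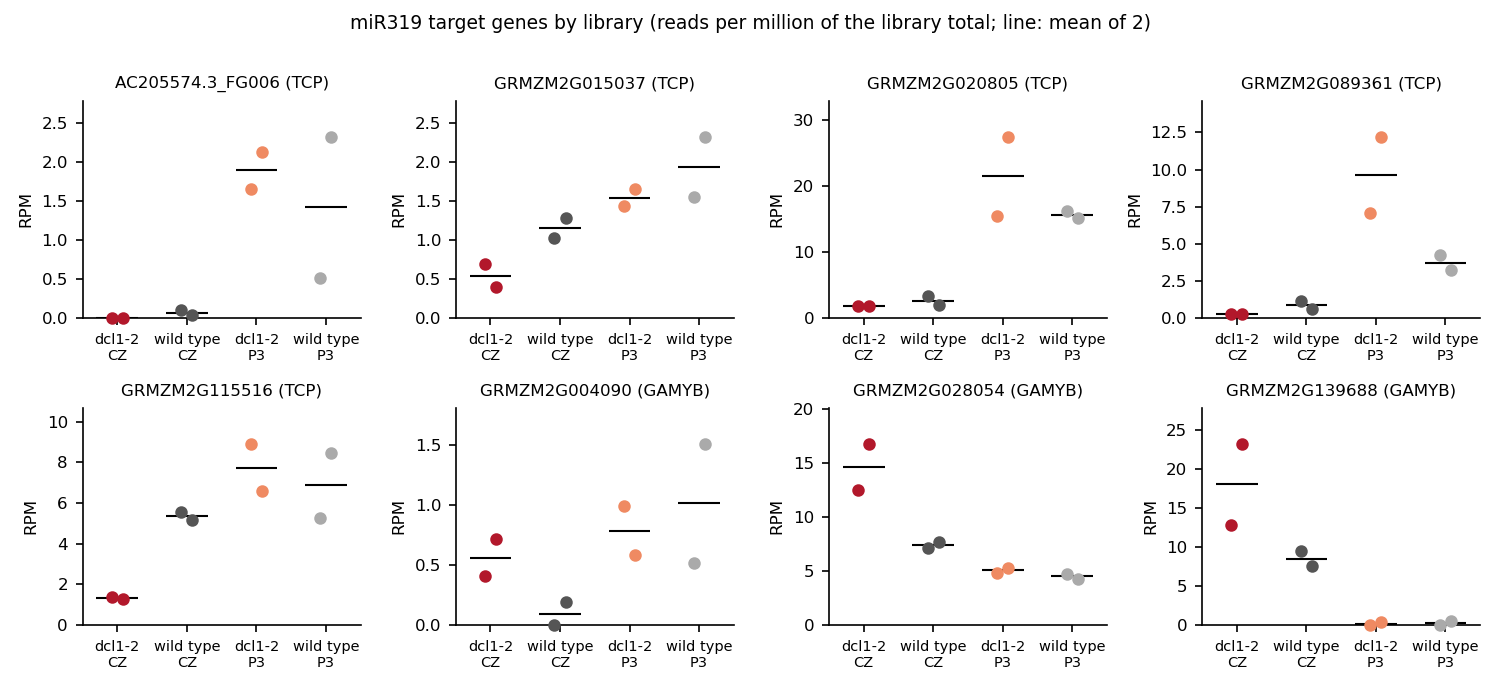
RPM (linear axes starting at 0, a scale for each panel) of the 5 TCP and 3 GAMYB targets of miR319 with more than 1 count; points are libraries and lines the mean of 2. GRMZM2G115516 is at 1.37 and 1.27 RPM in *dcl1-2* CZ, against 5.57 and 5.18 RPM in wild-type CZ, while in P3 its genotypes overlap.

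Whether the targets respond to *dcl1-2* differently in P3 and in the CZ was tested over all 8 libraries. The difference, P3 minus CZ, was positive for all 5 TCP targets tested and negative for all 3 GAMYB targets, and none passed by edgeR. For GRMZM2G115516 it was 2.31 ± 0.60 (SE, log2 scale, edgeR adjusted p = 0.0621) and for GRMZM2G089361 it was 3.09 ± 0.83 (adjusted p = 0.0721). These 2 were the TCP targets with an unadjusted p under 0.05, and DESeq2 called 2 of the 5 TCP targets and 0 of the 3 GAMYB targets. The median over the TCP targets was 2.31 as fitted and 1.05 with AC205574.3_FG006, which has no count in *dcl1-2* CZ, at its bound, against 0.0066 for all rows tested.

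Between the tissues, most TCP targets were higher in P3, and 2 of the 3 GAMYB targets were lower. Of all rows tested, 65.6% passed in either direction in *dcl1-2* and 62.3% in wild type. In *dcl1-2*, 4 of 5 TCP targets tested passed as higher in P3 than in the CZ (33.3% of all rows tested did so), with a median log2 fold change of 3.42. In wild type, 3 of 5 did (31.3% of all rows), with a median of 1.87. Of these 3, AC205574.3_FG006 lost its call as given above, and GRMZM2G089361 lost its call without wild-type CZ replicate 2 (adjusted p = 0.0640) and without wild-type P3 replicate 1 (0.0674). GRMZM2G139688 fell in P3, to 0 and 4 counts in *dcl1-2* P3, against 317 and 585 in *dcl1-2* CZ, and to 0 and 4 counts in wild-type P3, against 286 and 202 in wild-type CZ. Its log2 fold change was -6.52 ± 0.78 in *dcl1-2* and -5.44 ± 0.79 in wild type (SE, edgeR adjusted p = 9.8e-06 and 6.1e-05). With only 4 counts in P3 of each genotype, these sizes turned on 1 P3 library: they were -5.63 in *dcl1-2* and -4.44 in wild type without P3 replicate 1 of that genotype, and -11.46 and -10.41 as fitted without replicate 2, passing in each case. GRMZM2G028054 also fell in both genotypes (-1.63 ± 0.34 and -0.92 ± 0.34, adjusted p = 8.7e-04 and 0.0298). Its wild-type call was lost with DESeq2 (adjusted p = 0.0625), with upper-quartile normalization (0.0899), with total counts only (0.0869), and without wild-type CZ replicate 2 (0.0926) or wild-type P3 replicate 1 (0.0585) or 2 (0.120). The third GAMYB target, GRMZM2G004090, passed as higher in wild-type P3 than in wild-type CZ (3.14 ± 1.26, adjusted p = 0.0435), and not in *dcl1-2* (0.37 ± 1.10, adjusted p = 0.780). That call was lost with DESeq2 (adjusted p = 0.0645), with no minimum level (0.0585) and without wild-type CZ replicate 1 (2.12, adjusted p = 0.167), wild-type P3 replicate 1 (0.0575) or either *dcl1-2* P3 library (0.0677 and 0.0656), and it was 6.93 as fitted without wild-type CZ replicate 2.

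**Figure D3:**
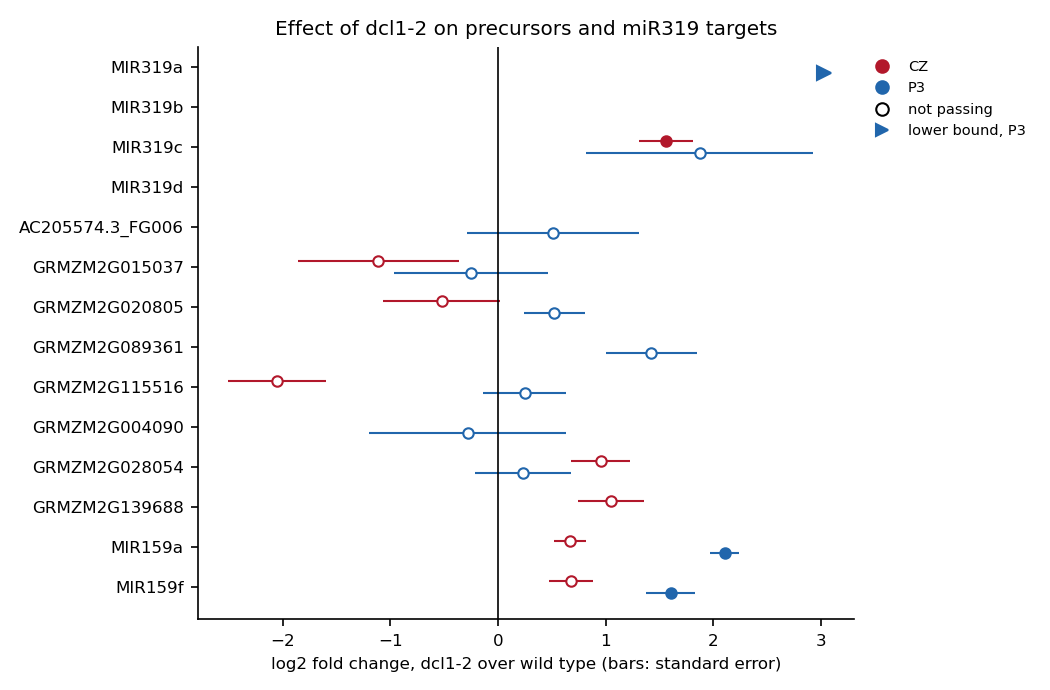
Log2 fold changes of *dcl1-2* over wild type in the CZ and in P3 with their standard errors, for precursors and miR319 targets; filled points pass the test, open points do not, and rows without a point were not tested. The arrowhead gives *MIR319a* in P3 as a lower bound, and *MIR319c* in the CZ, at 1.56, is the only filled CZ point.

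The *MIR159* precursors give the nearest comparison. Of 11 *MIR159* precursors 2 had counts. *MIR159a* had 14701 and 15288 counts in *dcl1-2* P3 (1619 and 1480 RPM), against 3899 and 3022 in wild-type P3 (403 and 350 RPM). It had 4111 and 4432 counts in *dcl1-2* CZ (166 and 176 RPM), against 2839 and 3083 in wild-type CZ (93.6 and 116 RPM). In both tissues the *dcl1-2* libraries were above the wild-type libraries. The log2 fold changes were 2.10 ± 0.13 in P3 (SE, edgeR adjusted p = 1.4e-07) and 0.67 ± 0.15 in the CZ, where it did not pass with edgeR (adjusted p = 0.104). There it passed with DESeq2 (adjusted p = 0.00332) and when the 8 libraries shared 1 model (0.0391). It also passed with a minimum of 5 RPM or none (0.0433 and 7.3e-04). Over the 9 alternative settings that kept all libraries its adjusted p in the CZ was 7.3e-04 to 0.104. With 1 library left out its log2 fold change there was 0.52 to 0.87. The difference between the effects in P3 and in the CZ passed (1.44 ± 0.20, adjusted p = 0.00347).

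*MIR159f* had 698 and 656 counts in *dcl1-2* P3, against 293 and 152 in wild-type P3 (log2 fold change 1.60 ± 0.23, SE, edgeR adjusted p = 6.3e-04), and in the CZ its log2 fold change of 0.68 ± 0.21 did not pass (adjusted p = 0.233). The difference between these effects was 0.93 ± 0.37 (adjusted p = 0.232). Its tissue pattern resembled that of *MIR319c*, being lower in P3 than in the CZ in *dcl1-2* (-1.42 ± 0.26, adjusted p = 3.6e-04) and in wild type (-2.36 ± 0.28, adjusted p = 9.5e-06). *MIR159a* was instead higher in P3 in *dcl1-2* (3.07 ± 0.15, adjusted p = 4.3e-09) and in wild type (1.63 ± 0.14, adjusted p = 8.2e-07).

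Precursor and mature levels of the families stood in opposite order. Summed per kb of gene model, *MIR319* precursors were at 21.6 RPM per kb and *MIR159* precursors at 224 RPM per kb in *dcl1-2* CZ, and at 7.06 and 137 RPM per kb in wild-type CZ. In *dcl1-2* P3 *MIR319* was at 3.38 and *MIR159* at 952 RPM per kb, and in wild-type P3 *MIR319* was at 0.576 and *MIR159* at 236 RPM per kb. *MIR159* thus exceeded *MIR319* by 10.4 and 282 times in *dcl1-2* CZ and *dcl1-2* P3 and by 19.4 and 411 times in wild-type CZ and wild-type P3, while mature miR319 reads were 2.65 times those of miR159 in the wild-type apex. The small RNA library held whole apices, including tissues that the CZ and P3 libraries lack, and no mature level in *dcl1-2* was measured, so the levels are set side by side only.

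**Figure D4:**
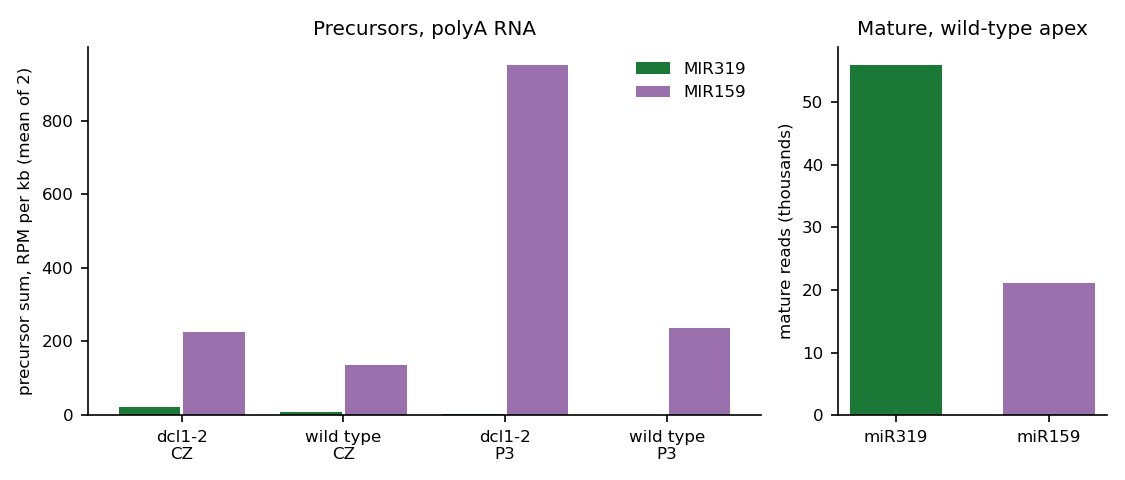
Precursor sums in RPM per kb of gene model (bars, mean of 2 libraries) of the *MIR319* and *MIR159* families in the 4 groups, and mature reads of miR319 and miR159 in the single wild-type apex library. *MIR319* bars range from 0.576 to 21.6 RPM per kb and *MIR159* bars from 137 to 952 RPM per kb, whereas mature miR319 has 56065 reads and mature miR159 has 21183.

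Among the other precursors, 4 of 24 tested passed in the CZ, each higher in *dcl1-2*, where 0.116% of all rows passed as higher. In P3 18 of 31 passed, 16 higher and 2 lower, against 3.34% and 1.16% of all rows. DESeq2 called 7 of the 24 in the CZ and 17 of the 31 in P3. The median log2 fold change of the other precursors tested was 0.64 in the CZ and 1.29 in P3. *MIR319c*, at 1.56 in the CZ, was 1 of 5 precursors of any family to pass there by edgeR. The *MIR164* and *MIR396* lists, families known to act in leaf and organ growth, had no passing precursor in the CZ: 0 of 2 and 0 of 2 by edgeR and by DESeq2, with 0 and 1 at an unadjusted p under 0.05. In P3 0 of 2 *MIR164* precursors passed by edgeR or DESeq2 (1 at an unadjusted p under 0.05), and no *MIR396* precursor was tested.

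Other TCP genes and lipoxygenase genes, lists tied to the TCP factors, were also counted. Both lists were chosen with earlier results of these data known, so their shares of passing genes are descriptions and no test. Of 6 other TCP genes, chosen by symbol, 5 were tested in the CZ, 3 with a positive and 2 with a negative log2 fold change, and 0 passed by edgeR. The only 1 at an unadjusted p under 0.05 was GRMZM2G166946 (*TCP30*), which DESeq2 called lower in *dcl1-2* (adjusted p = 0.00267). It had 1 and 11 counts in *dcl1-2* CZ, against 184 and 48 in wild-type CZ (log2 fold change -4.04 ± 0.92, SE, edgeR adjusted p = 0.109). In P3 1 of 6 passed as higher, GRMZM2G035944 (*TCP7*), with 156 and 121 counts in *dcl1-2* P3, against 66 and 43 in wild-type P3 (log2 fold change 1.34 ± 0.34, SE, edgeR adjusted p = 0.0361). The call was lost when the 8 libraries shared 1 model (adjusted p = 0.178), without *dcl1-2* P3 replicate 1 (0.248) and without wild-type P3 replicate 2 (0.122). In the CZ it had 0 counts in both *dcl1-2* libraries, against 20 and 24 in wild-type CZ. Lipoxygenase genes include enzymes of jasmonate synthesis, a process that TCP factors promote in Arabidopsis. The list was taken by symbol, and which of its members serve that process was not examined. Of the 9 tested in P3, 8 had a positive and 1 a negative log2 fold change. In all, 5 passed as higher, against 3.34% of all rows, and DESeq2 called 4 of the 9. The part of miR319 or its TCP targets in these lipoxygenase levels was not tested. *lox1* (GRMZM2G156861), whose model spans 143463 bases in the table, was at 52.0 and 49.3 RPM in *dcl1-2* P3, against 3.62 and 3.13 RPM in wild-type P3 (3.96 ± 0.25, adjusted p = 1.4e-07), and *lox10* (GRMZM2G015419) at 38.8 and 36.7 RPM in *dcl1-2* P3, against 2.59 and 9.39 RPM in wild-type P3 (2.75 ± 0.37, adjusted p = 3.6e-04). The value of *lox10* was 2.11 to 3.89 with 1 library left out, and its call was lost when the 8 libraries shared 1 model (adjusted p = 0.128). In the CZ 0 of 6 lipoxygenase genes passed by edgeR, and 5 had a negative and 1 a positive log2 fold change (median -0.84). The 3 at an unadjusted p under 0.05, 1 of them called by DESeq2, were all lower in *dcl1-2*.

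Of the gene models that overlap a precursor, GRMZM2G412073 covers 1355 bases of *MIR319b* on the same strand and had the same count as *MIR319b* in all 8 libraries, so the few counts of *MIR319b* cannot be told from those of that model. *MIR319a* overlapped no other model. GRMZM2G702204, singled out after its values were seen, lies on the opposite strand beyond the 3′ end of *MIR319a*, with 580 bases between the 3′ ends of the 2 models. It had 171 and 178 counts in *dcl1-2* P3 (18.8 and 17.2 RPM), against 9 and 4 in wild-type P3 (0.931 and 0.464 RPM), the same direction as *MIR319a* and with many more reads (log2 fold change 4.71 ± 0.44, SE, edgeR adjusted p = 1.0e-05, and 4.29 to 5.34 with 1 library left out). In the CZ it had 554 and 197 counts in *dcl1-2* CZ, against 279 and 153 in wild-type CZ (0.99 ± 0.43, adjusted p = 0.451).

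The rows whose pattern over the 8 libraries was most like that of *MIR319c*, by Pearson's r of log2(RPM + 1), were GRMZM5G877985 (r = 0.990), GRMZM2G043456 (r = 0.987) and GRMZM5G818978 (r = 0.985). This is a description over 8 points that share tissue, layout and depth, and 1633 of the 17175 rows compared reached an r of 0.9. GRMZM5G818978, for example, was at 44.4 and 37.6 RPM in *dcl1-2* CZ, against 26.6 and 23.5 RPM in wild-type CZ, and at 9.69 and 9.29 RPM in *dcl1-2* P3, against 6.31 and 8.23 RPM in wild-type P3.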

How the data were processed

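The deposited RNA-seq table holds raw read counts per gene or precursor, which the authors made with Trimmomatic for trimming and TopHat for alignment (genome B73 RefGen_v3). The deposited RPM columns of that table, treated as a score because their sums differ between libraries, were not used; RPM here is counts per 1000000 counts of the library. P3 reads are paired-end, CZ reads single-end. For small RNA, trimming by the authors was with cutadapt 1.13 and alignment with Bowtie 1.1.2. Read counts and RPM values are deposited for each mature sequence, and entries of 1 sequence were merged.

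Tests on the counts used edgeR 4.0.16 (quasi-likelihood; R 4.3.3, limma 3.58.1) with TMM normalization, on rows whose mean in a group reached 1 RPM. The 4 libraries of a tissue were fitted for *dcl1-2* against wild type, and all 8 for contrasts involving both tissues. The Benjamini-Hochberg adjustment covered all rows tested, and a row passed at an adjusted p under 0.05. Standard errors were derived from the F statistic, as the size of the log2 fold change over √F. The fits were tested on simulated data. With 2 libraries a group, described as biological replicates, SDs measure the spread between these libraries. The edgeR p-values rest on variances estimated in part from all rows tested. DESeq2 1.42.0, other normalizations, filters, the replicate number as a block and leaving out each library were alternatives. Other steps used Python 3.11.15 with scipy 1.17.1, pandas 2.3.3, numpy 2.4.6 and matplotlib 3.10.9. 1 blank count cell was read as 0.

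The members and lists were chosen with earlier results of these data known. Named genes are the members, *DCL1*, the study's miR319 targets, *MIR159* precursors of at least 1 RPM in a group, models overlapping a precursor, the 3 rows most like *MIR319c* and at most 3 passing members of each other list. GRMZM2G166946, which did not pass by edgeR in the CZ, is named as well. Names came from Zm-B73-REFERENCE-NAM-5.0 and matched 18884 rows, 520 to more than 1 name; TCP genes and 11 of 12 lipoxygenase symbols were found this way, and of the marker symbols 8 of 11 KNOX, 3 of 8 YABBY, 3 of 8 vascular and 4 of 5 HD-ZIP IV. Target sites are from the study's supplementary list.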

Additional observations from a re-analysis of the deposited data

Results flagged for a closer look

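The effect of *dcl1-2* differed between the tissues for 5 of the genes described, by the edgeR test of the difference itself. Of all 23512 rows tested, 2.36% passed. *lox1*, *lox10* and *TCP7* had been named as genes passing in P3, and GRMZM2G702204 had been picked with its levels already known. Such a choice favours a difference between the tissues, so these 5 are examples and their number is no rate. Of the 9 lipoxygenase genes tested for the difference 4 passed, so *lox1* and *lox10* were not the only ones. For *MIR159a* the log2 fold change in P3 minus that in the CZ was 1.44 (SE 0.20, adjusted p = 0.00347); it was higher in both *dcl1-2* libraries of each tissue, and the adjusted p stayed between 6.7e-04 and 0.0254 with any 1 library left out. For GRMZM2G702204, the model beside *MIR319a*, the difference was 3.74 (SE 0.75, adjusted p = 0.0220), with a range of adjusted p of 0.00723 to 0.127 with 1 library left out. For GRMZM2G035944 (*TCP7*) the difference was 8.25 as fitted (SE 1.18, adjusted p = 0.00587, and 0.00305 to 0.0317 with 1 library left out); it had no count in *dcl1-2* CZ, so this size is no bound. For *lox1* (GRMZM2G156861) it was 4.97 (SE 0.57, adjusted p = 0.00154), and 4.06 to 5.52 with 1 library left out. Both *dcl1-2* libraries of *lox1* were above both wild-type libraries in P3. In the CZ it was at 2.75 and 2.69 RPM in *dcl1-2*, against 7.91 and 2.78 RPM in wild type. The effect in the CZ did not pass (edgeR adjusted p = 0.536). For *lox10* (GRMZM2G015419) the difference was 6.78 (SE 1.63, adjusted p = 0.0488), and DESeq2 did not call it (adjusted p = 0.282). Without wild-type CZ replicate 1, which held all 63 wild-type CZ counts, it was -0.41. No *MIR319* precursor and no miR319 target passed this test by edgeR.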

How the results depend on the processing

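The numbers of rows passing the test moved by more than 1.5 times under several settings. In the CZ 58 rows passed, against 345 with DESeq2, 697 with no minimum level, 137 with a minimum of 5 RPM, 308 with the replicate number as a block, 241 with all 8 libraries in 1 model and 42 to 674 with 1 library left out. In P3 1012 passed, against 622 with a log2 fold change of at least 1, 1686 with no minimum level, 1610 with the replicate block, 419 with all 8 libraries in 1 model and 533 to 1847 with 1 library left out. For the difference between the tissues 555 passed, against 1022 with DESeq2, 1589 with no minimum level, 948 with the replicate block and 79 to 911 with 1 library left out. Same-numbered libraries did not deviate together (r = 0.052 in the CZ and 0.0051 in P3). With 2 libraries a group this cannot exclude that the numbers pair them, and the main fits assumed no pairing. With the replicate block GRMZM2G115516 (adjusted p = 0.0489), *MIR159a* (0.0172) and *MIR159f* (0.0140) also passed in the CZ and GRMZM2G089361 (0.0284) in P3.

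*MIR319c* kept its direction in the CZ under all settings tried: its log2 fold change of 1.56 was 1.57 with all 8 libraries in 1 model and 1.33 to 1.87 with 1 library left out. The difference between the tissues for *MIR319c* was -0.66 to 6.47 with 1 library left out, so its sign is not settled. With 1 library left out, values that changed sign were, for *dcl1-2* against wild type in P3, AC205574.3_FG006 (-0.19 to 1.88), GRMZM2G015037 (-0.48 to 0.023), GRMZM2G115516 (-0.026 to 0.58) and GRMZM2G004090 (-0.83 to 0.049). Others were GRMZM2G139688 in the difference between the tissues (-6.00 to 3.89), GRMZM2G115516 in wild-type P3 against wild-type CZ (-0.20 to 0.39), and, in *dcl1-2* P3 against *dcl1-2* CZ, GRMZM2G702204 (-0.42 to 1.10) and GRMZM2G004090 (-0.065 to 0.83, and -0.20 with the replicate block). None of these passed the test in the report. Of the values that did pass, the difference between the tissues for *lox10* (GRMZM2G015419) changed sign with 1 library left out (-0.41 to 10.01). The causes were not tested.

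Mature miR319 was 0.0544% of all mapped reads and 1.42% of reads when repeated entries were counted, against 2.32%. Other normalizations moved the median of all rows between the tissues by up to 0.22 on the log2 scale. Depth limits *MIR319a*, *MIR319b* and *MIR319d*, which had at most 25 counts in a library.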
